A study of Mus musculus with 54 samples.

Results

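Solute carriers (Slc genes) are the largest group of membrane transporters in mammals, and they were described here in myeloid progenitors of mouse bone marrow. Members were the gene rows with a symbol that starts with Slc and a digit and with at least 100 unique molecular identifiers (UMIs, counts of captured mRNA molecules) over all wells; Slc22a3 and Slc45a3 were left out. This gave 149 members of 346 Slc rows among 27297 gene rows, and the members made up 1.55% of the 9640 rows with at least 100 UMIs. The last members inside the minimum were Slc25a40 and Slc9a3r2 with 100 UMIs each, and the first outside it were Slc39a4 with 95 and Slc24a3 with 92. Of the members, 24 are rows that join several symbols, some of them only aliases or other spellings of 1 gene, and counts of rows that join different genes are uncertain. Another 4 are adaptor or neighbouring genes that carry the Slc name without being transporters.

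Slc proteins move amino acids, sugars, nucleosides, ions, metals and metabolites across the plasma membrane, the membranes of organelles and the inner membrane of mitochondria, and a family number groups proteins with related sequences. Red cell precursors take up iron through the transferrin receptor, release it from the endosome through Slc11a2 and make heme in mitochondria from glycine and succinyl-CoA. Slc25a38 brings glycine into the mitochondrion and Slc25a37 brings in iron, so that erythroid cells depend on particular carriers.

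Single cells were sorted into plates and sequenced by MARS-seq, which counts UMIs at the 3′ ends of mRNA in each well. All were Lin- cKit+ Sca1- marrow cells of C57BL/6 mice. Each sample is 1 amplification pool of wells, and results compare pools, not cells. The CMP_CD41 gate (2 pools, 336 cells) held wild-type CD34+ FcgR(low) CD41+ cells, the CMP_Flt3_Csf1r gate (2 pools, 380 cells) wild-type Flt3+ Csf1r+ cells, and the CMP_Irf8GFP_MHCII gate (4 pools, 743 cells) GFP+ MHCII+ cells of Irf8-GFP mice. The unsorted progenitors (16 pools, 2732 cells) were wild type. Cebpa knockout pools (8 pools, 847 cells) came from Cebpa(flox/flox)Mx1-Cre mice given poly(I:C), which induces the interferon-responsive Mx1 promoter that drives Cre. Cebpa control pools (4 pools, 558 cells) also had poly(I:C); the strain label names Mx1-Cre for control replicates 3 and 4 and Cebpa(flox/flox) for replicates 5 and 6. These groups were 6 to 8 weeks old.

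Cebpe knockout (4 pools, 559 cells) and Cebpe control (2 pools, 250 cells) were taken from the authors' well table, in which they were all from 1 sequencing batch, because GEO's labels name them otherwise. The knockout pools are labelled Cebpa control (2 pools, Cebpa(flox/flox)) and Cebpe control (2 pools, Cebpe+/+), and the control pools Cebpa knockout (Cebpa(flox/flox)Mx1-Cre). The labels of these 6 pools give an age of 14 weeks, and for the pools labelled as Cebpa genotypes 3 injections of 300 µg poly(I:C) with harvest after 3 weeks. Counts of the targeted genes followed the authors' table: Cebpe had 0 UMIs in each of the 4 Cebpe knockout pools, against 40 and 21 UMIs in the 2 Cebpe control pools. Cebpa had 1, 1, 0, 1, 0, 0, 0 and 0 UMIs in the 8 Cebpa knockout pools, against 51, 64, 45 and 35 UMIs in the 4 Cebpa control pools. With each group from a single mouse identifier, p-values here measure only how pools vary, and that variation may be technical.

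The 54 pools held 27845961 UMIs, between 140748 and 854479 per pool, and 8399 of 10260 cells had at least 500 UMIs (median 2646). In 18 pools the label and the authors' table named different groups; 42 pools were used and 12 were left out. No well name was shared between pools. The 108 wells without a cell held 6279 UMIs, 63 of them from members.

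Members together gave 266774 UMIs, 0.958% of the total, and mitochondrial carriers of family 25 led them. Slc25a3, the mitochondrial phosphate carrier, had 37447 UMIs, and Slc25a5, an ADP/ATP carrier with processed copies in the genome that make its count uncertain, had 34847. Both together held 27.1% of the members' UMIs. Below them stood Slc25a4, another ADP/ATP carrier, with 7882 UMIs, Slc25a39, a mitochondrial glutathione carrier, with 6867, and Slc25a1, the citrate carrier, with 6312. The next were Slc29a1, a nucleoside transporter joined with Ent1, with 6054 UMIs, Slc3a2, the heavy chain of several amino acid transporters, with 5980, and Slc35a4 with 5212. Slc10a3, joined with Ubl4, had 5153 UMIs and Slc35c2 had 4896; the 10 leading members held 45.2% of the members' UMIs.

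Cells of the unsorted pools were put into 4 exclusive classes by genes outside the Slc group. At least 2 UMIs of Car1 (an erythroid carbonic anhydrase) defined 918 cells, at least 2 of Elane (neutrophil elastase) 730 cells, at least 2 of Pf4 (a platelet chemokine) 21 cells, and at least 1 of the receptor gene Flt3 83 cells, of which 68 in 11 pools could be used. Because 21 Pf4 cells were too few for a test, the Pf4 class was taken from the CMP_CD41 gate (222 cells in 2 pools), a change made after seeing the data, and there the class cannot be told apart from the sort. Marker lists matched the class names in part. All 9 tested erythroid markers were higher in Car1 cells, 7 of 7 neutrophil markers in Elane cells, 6 of 6 megakaryocyte markers in Pf4 cells and 5 of 5 multipotent markers in Flt3 cells. Elane cells were also higher in 6 of 6 monocyte, 3 of 3 eosinophil, 2 of 2 basophil and mast and 2 of 5 megakaryocyte markers, Flt3 cells in 4 of 4 dendritic and 4 of 6 monocyte markers, Pf4 cells in 2 of 9 erythroid markers and Car1 cells in 2 of 5 megakaryocyte markers. Levels below are CPM, a gene's UMIs per 1000000 UMIs of the library with TMM scaling over the 4 classes, as mean ± SD over pools, and ratios are log2 ratios from edgeR, called at an adjusted p under 0.05.

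Of 119 members tested, 9 were higher in Car1 cells than in each of the other 3 classes, which is 7.56% against 3.59% of all genes tested. Pf4 cells had 3 such members (2.52%, against 4.67% of all genes), Elane cells 0 (1.51% of all genes) and Flt3 cells 0 (0.577% of all genes). The 9 that marked Car1 cells were Slc38a5, Slc25a38, Slc11a2, Slc16a1, Slc25a21, Slc41a3, Slc22a23, Slc12a4 and Slc26a1, and the 3 that marked Pf4 cells were Slc14a1, Slc2a3 and Slc7a4. Another 12 members were higher in Elane cells than in 2 of the other classes, which is 10.1% of those tested, against 8.45% of all genes. By the same measure 12 were higher in Car1 cells (8.57% of all genes), 4 in Flt3 cells (3.11%) and 2 in Pf4 cells (7.07%). For the 12 Elane members the 2 classes were Car1 and Pf4 cells, since 0 members were called between Elane and Flt3 cells. Mean levels of some were higher in Flt3 cells, such as Slc38a1 (292 CPM, against 216 in Elane cells) and Slc39a1 (78.5, against 47.0). All of these sets were defined after the class values were seen.

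**Figure D1:**
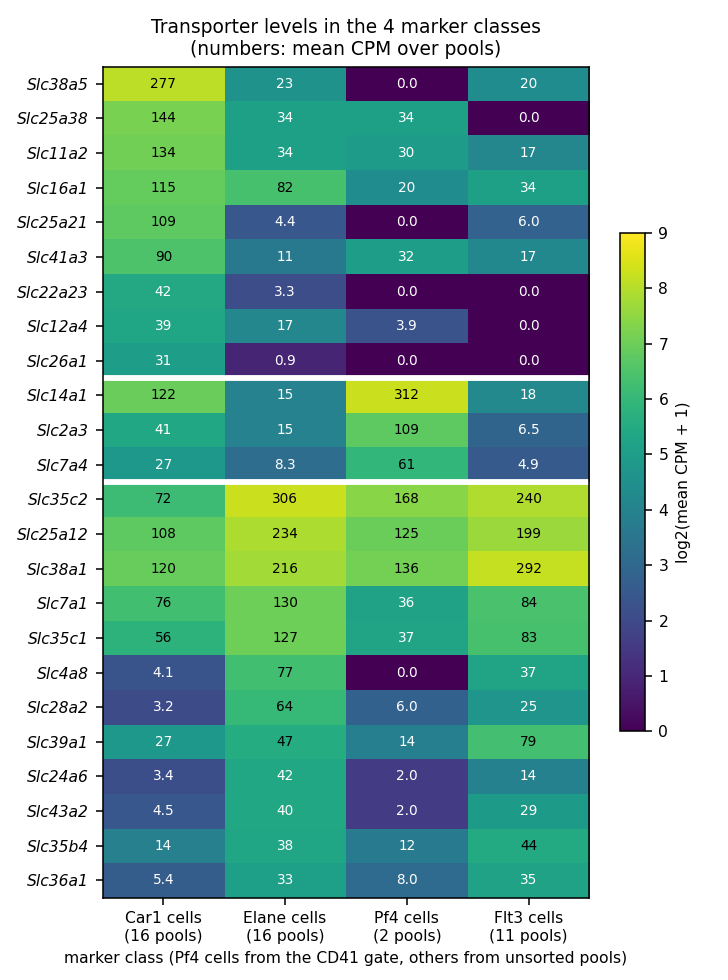
Mean levels of 24 members in Car1, Elane, Pf4 and Flt3 cells. Rows are members (9 that marked Car1 cells, 3 that marked Pf4 cells, 12 higher in Elane cells than in 2 other classes), color is log2(mean CPM + 1) and the printed numbers are mean CPM over pools; Slc38a5 stands at 277 CPM in Car1 cells and at 0 in Pf4 cells.

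The start regions of 4 members on which the results below turn are printed here from RefSeq (GRCm38.p6), each as the 250 bases before the annotated start, 5′ to 3′ on the gene's strand. Slc38a5 and Slc25a38 marked Car1 cells. Slc25a12 and Slc4a8 were higher in Elane cells than in Car1 and Pf4 cells and fell in Cebpa knockout pools. Capitals mark matches on either strand to AGATAA or its relative TGATAA (both of the kind bound by GATA factors), to CACCC (bound by Krüppel-like factors) or to TTGCNNAA (bound by C/EBP factors). Slc38a5 lies at chrX:8271131-8271380 (+), Slc25a38 at chr9:120110132-120110381 (+), Slc25a12 at chr2:71367756-71368005 (−) and Slc4a8 at chr15:100761497-100761746 (+).
Slc38a5: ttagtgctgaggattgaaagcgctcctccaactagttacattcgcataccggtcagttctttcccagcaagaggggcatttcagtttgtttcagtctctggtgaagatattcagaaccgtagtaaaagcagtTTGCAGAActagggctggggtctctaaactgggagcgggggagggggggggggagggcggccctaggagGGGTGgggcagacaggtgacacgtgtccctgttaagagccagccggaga
Slc25a38: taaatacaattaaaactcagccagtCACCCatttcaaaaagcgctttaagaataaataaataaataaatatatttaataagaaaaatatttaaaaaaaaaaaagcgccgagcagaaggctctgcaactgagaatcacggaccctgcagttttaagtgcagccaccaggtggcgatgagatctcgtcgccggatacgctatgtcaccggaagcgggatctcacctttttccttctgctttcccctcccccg
Slc25a12: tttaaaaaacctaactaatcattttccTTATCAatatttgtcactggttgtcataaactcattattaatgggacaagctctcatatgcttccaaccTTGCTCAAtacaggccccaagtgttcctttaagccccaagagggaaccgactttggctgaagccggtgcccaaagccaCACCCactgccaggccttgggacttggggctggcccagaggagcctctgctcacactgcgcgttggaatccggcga
Slc4a8: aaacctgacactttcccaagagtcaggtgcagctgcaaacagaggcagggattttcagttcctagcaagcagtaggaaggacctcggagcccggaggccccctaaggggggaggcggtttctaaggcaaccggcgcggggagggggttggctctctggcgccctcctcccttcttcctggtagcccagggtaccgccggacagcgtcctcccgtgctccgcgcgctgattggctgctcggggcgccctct
The Slc38a5 window holds CACCC, read as GGGTG on this strand, 49 bases before the start and TTGCNNAA 118 bases before it. The Slc25a38 window holds CACCC 225 bases before the start. The Slc25a12 window holds TGATAA, read as TTATCA, at 223 bases, TTGCNNAA at 154 and CACCC at 76 bases before the start, and the Slc4a8 window holds none of the 4 strings. Over 10 start regions of 8 Car1-marking genes, 9 held CACCC and 1 held each of the other strings; over 14 start regions of 10 of the Elane genes, 9 held CACCC and 3 held TTGCNNAA, while each of the GATA strings was in 2. Of all 32851 start regions, 52.0% held CACCC and 9.56% held TTGCNNAA, while 9.99% held AGATAA and 7.94% held TGATAA. Over the 164 start regions of all members these shares were 65.9%, 6.71%, 7.93% and 4.27%. These matches describe letters in the windows and show no binding.

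Every Car1 sum of Slc38a5, Slc25a38, Slc11a2 and Slc25a21 lay above every sum of the other 3 classes. Against the mean of Elane and Flt3 cells, 30 of 119 members were higher and 32 lower, against 16.3% and 17.2% of all genes tested (25.2% and 26.9% of members); the median log2 ratio was −0.12 for members and 0.05 for all genes. Within 1 sequencing batch at a time, 22 were higher and 28 lower in the larger batch (12 pools), and 9 and 5 in the smaller one (4 pools). Member counts under such alternative settings, here and below, are given without the share of all genes and were not compared with it. Slc38a5, a glutamine, glycine and serine transporter, ran from 234 to 387 CPM in the 16 Car1 sums (median 255), against 0 to 55.8 in Elane sums (median 17.5), 0 to 104 in Flt3 sums (median 0) and 0 UMIs in both Pf4 sums. The log2 ratio to Elane cells was 3.54 (SE 0.16, adjusted p = 1.24e-75) and to Flt3 cells 3.79 (SE 0.51, adjusted p = 2.96e-11), and against the floor of 3 UMIs over the Pf4 class (5.37 CPM) it was at least 55.1-fold higher in Car1 cells.

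Slc25a38, the mitochondrial glycine carrier, stood at 81.3 to 204 CPM in Car1 sums (median 145), against 0 to 76.0 in Elane sums (median 31.3), 27.4 and 40.0 in Pf4 sums and 0 UMIs in Flt3 sums. Car1 sums did not overlap with those of the other classes. The log2 ratio to Elane cells was 2.05 (SE 0.16, adjusted p = 6.03e-30), and the level was at least 7.33-fold higher in Car1 cells than the Flt3 floor of 20.8 CPM. Slc11a2, which moves iron out of endosomes (joined with AK182549 and Nramp2), had 81.9 to 186 CPM in Car1 sums (median 135), against 0 to 57.6 in Elane sums, 27.4 and 32.0 in Pf4 sums and 0 to 66.5 in Flt3 sums. Again no sum of another class reached the Car1 range, and the log2 ratio was 1.95 to Elane cells (SE 0.16, adjusted p = 2.02e-27) and 2.73 to Flt3 cells (SE 0.60, adjusted p = 9.7e-05).

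Slc25a21, a mitochondrial carrier of oxodicarboxylates, stood at 74.7 to 151 CPM (median 112) in Car1 sums, against 0 to 36.4 in Elane sums, 0 to 66.5 in Flt3 sums and 0 UMIs in Pf4 sums. Its log2 ratio to Elane cells was 4.44 (SE 0.27, adjusted p = 2.24e-45). Slc16a1, the lactate and pyruvate transporter MCT1, differed less between Car1 and Elane cells: 60.1 to 177 CPM in Car1 sums (median 106), against 29.6 to 138 in Elane sums (median 83.5), 16.0 and 23.5 in Pf4 sums and 0 to 167 in Flt3 sums. The Car1 and Elane ranges overlapped widely, with a log2 ratio of 0.49 (SE 0.14, adjusted p = 0.00102), while the ratio to Flt3 cells was 2.04 (SE 0.57, adjusted p = 0.00418).

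The other 4 markers of Car1 cells were lower in level. Slc41a3, of a magnesium transporter family, averaged 89.6 ± 31.8 CPM in Car1 sums, against 11.4 ± 10.3 in Elane, 31.7 ± 0.470 in Pf4 and 17.2 ± 38.4 in Flt3 sums. Slc12a4, the K-Cl cotransporter KCC1 (joined with Kcc1), averaged 38.6 ± 12.2 CPM in Car1 sums, against 16.9 ± 11.5 in Elane and 3.92 ± 5.54 in Pf4 sums. Slc22a23, an orphan of the organic ion family, and Slc26a1, a sulfate and oxalate exchanger, had 41.7 ± 17.2 and 31.4 ± 11.8 CPM in Car1 sums, against 3.34 ± 3.95 and 0.913 ± 2.50 in Elane sums. The last 2 had 0 UMIs in both Pf4 and Flt3 sums, and were at least 8.88-fold and 6.32-fold higher in Car1 cells than the Pf4 floor. Against the Flt3 floor of 20.8 CPM these bounds were only 2.29-fold and 1.63-fold. Slc12a4 also had 0 UMIs in Flt3 sums, with a bound of 1.94-fold. Slc43a1, a transporter of large neutral amino acids, was at 129 CPM in Car1, 35.0 in Elane, 93.3 in Pf4 and 36.3 in Flt3 cells and thus exceeded 2 of the 3 other classes.

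**Figure D2:**
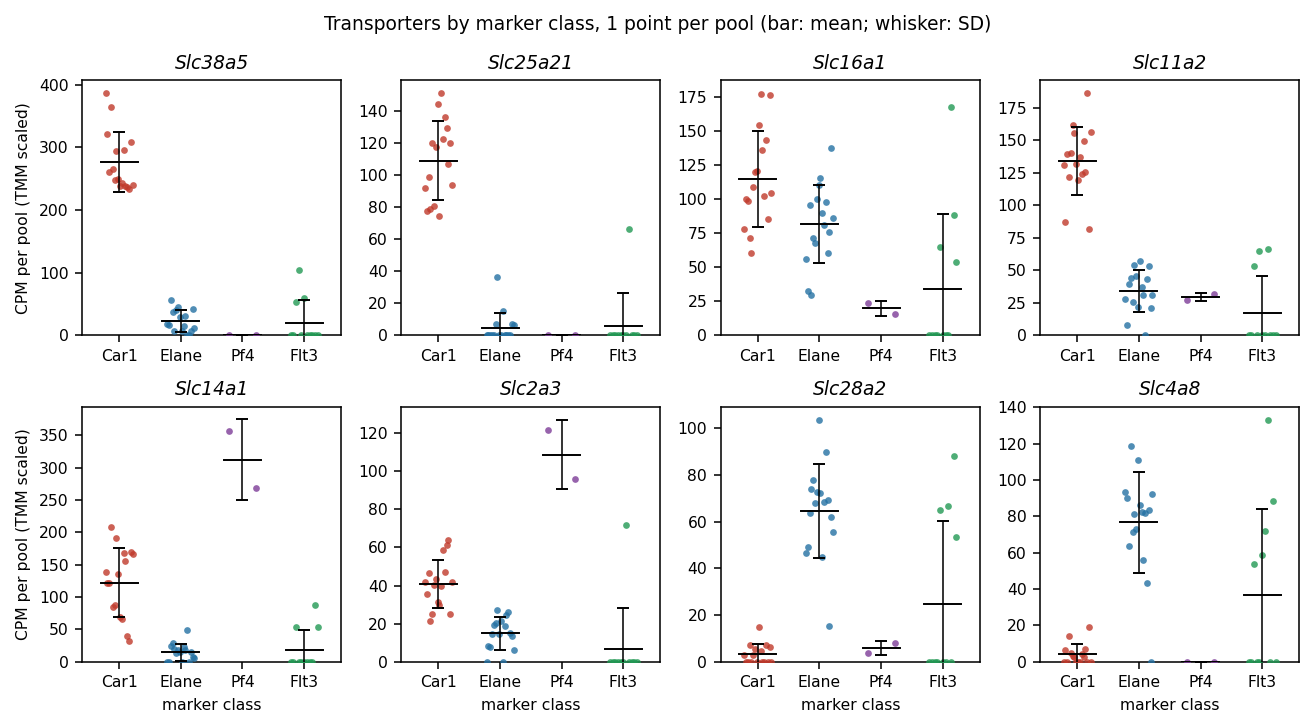
Levels of 8 members by class, each point 1 pool (CPM), with bars at the mean and whiskers of 1 SD. Slc38a5, Slc11a2 and Slc25a21 stand apart in Car1 cells, Slc14a1 and Slc2a3 are highest in Pf4 cells, and Slc28a2 and Slc4a8 are highest in Elane cells, where their ranges overlap with Flt3 cells.

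Of 6 tested members of the list of iron and heme transporters, 3 were higher in Car1 cells (Slc25a38, Slc11a2 and Slc40a1) and 1 was lower (Slc39a14). This was against the mean of Elane and Flt3 cells, where 16.3% of all genes were higher and 17.2% lower. Slc40a1, the iron exporter ferroportin, averaged 13.9 ± 13.0 CPM in Car1 sums, against 5.29 ± 7.32 in Elane sums, with a log2 ratio of 1.21 (SE 0.42, adjusted p = 0.00943) and overlapping ranges. Slc39a14, an importer of zinc and iron, had 7.78 CPM in Car1 sums and 13.9 in Elane sums, a log2 ratio of −0.76 (SE 0.38, adjusted p = 0.08), and was called against the mean of Elane and Flt3 cells (−1.27, SE 0.51, adjusted p = 0.0413). Slc25a37, mitoferrin 1, had 26.2 ± 11.7 CPM in Car1 sums and 26.1 ± 15.2 in Elane sums and was not called, with a log2 ratio of 0.08 (SE 0.25, adjusted p = 0.811). Slc25a39 was lower in Car1 cells than in Elane cells, at 229.9 and 311 CPM, with a log2 ratio of −0.43 (SE 0.08, adjusted p = 2.13e-06). Among 17 tested other iron and heme genes 13 were higher in Car1 cells and 1 was lower.

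Slc14a1 and Slc2a3 led the members in Pf4 cells. Against the mean of the other 3 classes, 16 of 120 members were higher and 10 lower in Pf4 cells, against 15.5% and 12.8% of all genes, with median log2 ratios of 0.20 for members and 0.02 for all genes. With RLE scaling in place of TMM the split was 7 higher and 15 lower, since that scaling moved the median of all genes to −0.16 (to 0.15 for Car1 cells and −0.04 for Elane cells). In single contrasts 27 were higher and 20 lower in Pf4 cells than in Car1 cells (21.9% and 18.8% of all genes), 10 and 17 than in Elane cells (15.4% and 17.2%), and 6 and 8 than in Flt3 cells (7.38% and 7.4%). Slc14a1, the urea transporter that carries the Kidd blood group in human, had 268 and 356 CPM in the 2 Pf4 sums, against 32.0 to 208 in Car1 sums (median 129), 14.9 ± 13.1 in Elane sums and 17.8 ± 31.7 in Flt3 sums. Both Pf4 sums lay above every other sum, with log2 ratios of 1.36 to Car1 (SE 0.29, adjusted p = 9.65e-05), 4.32 to Elane (SE 0.36, adjusted p = 3.59e-16) and 3.88 to Flt3 cells (SE 0.72, adjusted p = 4.82e-05).

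Slc2a3, the glucose transporter GLUT3, had 96.0 and 121 CPM in Pf4 sums, against 21.5 to 63.9 in Car1 sums (median 41.0), 14.9 ± 8.52 in Elane sums and 6.53 ± 21.7 in Flt3 sums. The log2 ratio to Car1 cells was 1.36 (SE 0.29, adjusted p = 8.35e-05), with no overlap. Slc7a4, related to the cationic amino acid transporters, had 47.0 and 76.0 CPM in Pf4 sums, against 0 to 62.2 in Car1 sums (median 27.2) and 8.27 ± 6.87 in Elane sums. The ranges of Pf4 and Car1 sums overlapped (log2 ratio 1.11, SE 0.40, adjusted p = 0.022), and without CMP_CD41 replicate 2 Slc7a4 was no longer called against the mean of the other classes. Within the sequencing batch that the gate shares with 4 unsorted pools, all 3 remained called, with log2 ratios to that mean of 2.94 for Slc14a1, 3.97 for Slc2a3 and 1.55 for Slc7a4.

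The 21 Pf4 cells of the unsorted pools held 40269 UMIs, so they were described without a test. They had 19 UMIs of Slc14a1, or 472 CPM (95% Poisson interval 284 to 737, counting error only), 6 of Slc2a3, or 149 CPM (54.7 to 324), and 1 of Slc7a4, or 24.8 CPM (0.629 to 138). Slc38a5, Slc25a21, Slc12a4, Slc22a23 and Slc26a1 had 0 UMIs in them, which allows up to 91.6 CPM.

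Slc2a1, Slc9a3r1 and Slc44a2 were lower in Car1 cells than in the mean of Elane and Flt3 cells and higher in Pf4 cells than in the mean of the other 3 classes. Slc2a1, GLUT1, had 53.2 ± 35.6 CPM in Pf4 sums, against 4.42 ± 3.90 in Car1, 44.0 ± 18.5 in Elane and 39.3 in Flt3 sums. Slc9a3r1, the scaffold protein NHERF1, had 178 ± 14.1 CPM in Pf4 sums, against 38.4 ± 12.2 in Car1, 152 ± 35.2 in Elane and 178 ± 123 in Flt3 sums. Slc44a2, a choline transporter-like protein, stood at 138 CPM in Pf4 sums, against 28.2 ± 11.4 in Car1, 146 ± 51.0 in Elane and 142 ± 79.1 in Flt3 sums. Car1 cells were the low class for all 3, and against Elane cells the log2 ratio of Car1 cells was −3.10 for Slc2a1 (SE 0.31, adjusted p = 2.52e-20) and −2.46 for Slc44a2 (SE 0.16, adjusted p = 1.3e-42).

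Elane cells had no member above all 3 other classes. Their leading members included nucleoside, bicarbonate, calcium, amino acid and nucleotide-sugar transporters, of which none was called against Flt3 cells. Against the mean of Car1 and Flt3 cells, 24 of 119 members were higher and 4 lower in Elane cells, against 14.4% and 4.51% of all genes (median log2 ratio 0.22 for members and 0.08 for all genes). The split was 17 and 6 with RLE scaling and 15 and 19 with DESeq2, so the direction that prevailed was not the same under all settings. Within the larger batch 17 were higher and 3 lower, and within the smaller one 6 and 0.

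Slc28a2, the concentrative nucleoside transporter CNT2, had 15.2 to 103 CPM in the 16 Elane sums (median 68.0), against 0 to 14.9 in Car1 sums (median 1.39), 5.96 in Pf4 sums and 24.8 in Flt3 sums. Elane and Car1 sums did not overlap, and the log2 ratio to the mean of Car1 and Flt3 cells was 2.70 (SE 0.32, adjusted p = 2.34e-14). Slc4a8, a sodium-driven chloride and bicarbonate exchanger, had 0 to 119 CPM in Elane sums (median 82.0), against 0 to 18.9 in Car1 sums (median 2.75), 36.9 in Flt3 sums and 0 UMIs in Pf4 sums. All Elane sums but the lowest lay above the Car1 range, with a log2 ratio of 2.49 to the mean of Car1 and Flt3 cells (SE 0.30, adjusted p = 1.81e-14), and the level was at least 13.4-fold higher in Elane cells than the Pf4 floor. Slc24a6, the mitochondrial sodium and calcium exchanger, averaged 41.5 ± 18.8 CPM in Elane sums, against 3.44 ± 4.71 in Car1 and 14.4 in Flt3 sums (log2 ratio 2.55, SE 0.40, adjusted p = 1.06e-08). Slc43a2, the neutral amino acid transporter LAT4 (joined with a second spelling of its symbol), averaged 39.9 ± 15.5 CPM in Elane sums, against 4.46 ± 3.97 in Car1, 1.96 in Pf4 and 29.2 in Flt3 sums.

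Slc35c2, of the nucleotide-sugar transporter family, was the most abundant of these at 306 ± 61.0 CPM in Elane sums, against 71.9 ± 19.9 in Car1, 168 in Pf4 and 239.8 ± 160.0 in Flt3 sums. Every Elane sum (193 to 391) lay above every Car1 sum (28.6 to 93.4). Slc25a12, the mitochondrial aspartate and glutamate carrier aralar, had 234 ± 31.3 CPM in Elane sums, against 108 ± 26.2 in Car1, 125 in Pf4 and 199 in Flt3 sums, and was likewise without overlap between Elane and Car1 sums. Slc35c1, the Golgi GDP-fucose transporter, had a log2 ratio of 0.86 in Elane cells to the mean of Car1 and Flt3 cells (SE 0.21, adjusted p = 0.000395), and Slc7a1, the arginine transporter CAT1, one of 0.69 (SE 0.22, adjusted p = 0.0131). The 4 lower members were Slc46a3, Slc38a5, Slc29a1 and Slc25a3; Slc46a3, a lysosomal carrier, had 5.30 CPM in Elane sums, against 28.4 in Car1 and 16.1 in Flt3 sums. The direction turned for Slc46a3 and Slc25a3 with stricter gates (log2 ratios 0.33 and 0.024) and with 10 or more cells per pool and class (0.57 and 0.094).

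In the direct contrast of Car1 and Elane cells, 35 of 119 members were higher and 44 lower in Car1 cells, against 24.4% and 27.5% of all genes. Against Flt3 cells 14 were higher and 14 lower in Car1 cells (6.32% and 9.6% of all genes). By family, the mitochondrial carriers (family 25, 28 tested) had 7 higher and 5 lower in Car1 cells against the mean of Elane and Flt3 cells. The nucleotide-sugar carriers (family 35, 12 tested) had 1 higher and 6 lower, and the zinc transporters of family 39 (9 tested) 1 higher and 4 lower. Of all genes, 16.3% were higher and 17.2% lower in that contrast. In Elane cells 5 of 12 members of family 35 and 3 of 9 of family 39 were higher and 0 lower, beside 14.4% and 4.51% of all genes. Families were not tested.

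Flt3 cells were sampled thinly, at 143912 UMIs in all, and 3 of 119 members were higher and 2 lower in them than the mean of Car1 and Elane cells, against 4.21% and 1.61% of all genes (median log2 ratio −0.14 for members and −0.07 for all genes). The higher ones were Slc9a3r1 (log2 ratio 1.20, SE 0.35, adjusted p = 0.0159), Slc44a2 (1.16, SE 0.37, adjusted p = 0.0379) and Slc38a1, a glutamine transporter (0.85, SE 0.26, adjusted p = 0.0251). With 10 or more cells per pool and class Slc9a3r1 turned to −6.40, and 0 members were called under that setting and under stricter gates. Slc38a1 averaged 292 ± 125 CPM in Flt3 sums, against 119.7 ± 34.3 in Car1, 216 ± 33.7 in Elane and 136 in Pf4 sums. The lower ones were Slc16a1 (log2 ratio −1.80, SE 0.59, adjusted p = 0.0422) and Slc25a38, at 0 UMIs. Between Elane and Flt3 cells 0 members were called by edgeR (10 at an unadjusted p under 0.05), against 2.32% higher and 1.10% lower in Elane cells over all genes. At this depth Elane and Flt3 cells could not be separated by members.

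The 3 sorted gates were each compared with unsorted pools. The 3 comparisons share the 16 unsorted pools, and only the CMP_CD41 gate shares a sequencing batch with some of them, so gate and batch cannot be told apart for the other gates. In the CMP_CD41 gate 24 of 146 members were higher and 27 lower than in unsorted pools, against 18.5% and 20.2% of all genes (median log2 ratio 0.02 for members and −0.12 for all genes). Within the shared batch 18 were higher and 15 lower of 91 tested. The gate raised all 7 tested megakaryocyte markers and lowered 7 of 9 erythroid markers, and how far the make-up of the pools accounts for member differences was not tested.

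Slc14a1 had 298 and 245 CPM in the 2 CMP_CD41 pools, against 91.9 ± 37.6 in unsorted pools (log2 ratio 1.55, SE 0.32, adjusted p = 0.000323), and Slc2a3 had 119 and 89.8 CPM, against 33.3 ± 7.07 (1.63, SE 0.23, adjusted p = 1.21e-06). Slc41a1, a magnesium transporter, rose to 43.4 and 46.5 CPM in CMP_CD41 pools, against 12.6 ± 4.74 in unsorted pools (log2 ratio 1.84, SE 0.36, adjusted p = 0.000158). For these 3 members both CMP_CD41 pools lay above every unsorted pool. Slc38a5 had 5.78 and 0 CPM there (2 UMIs in all), against 179 ± 34.6 in unsorted pools, and Slc25a21, Slc26a1 and Slc40a1 had 0 UMIs. Slc11a2 fell to 34.7 and 27.9 CPM in CMP_CD41 pools, against 93.3 ± 17.4 in unsorted pools, a log2 ratio of −1.57 (SE 0.32).

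In the CMP_Flt3_Csf1r gate 28 of 146 members were higher and 27 lower, against 18.0% and 18.4% of all genes (median log2 ratio 0.04 for members and −0.05 for all genes). Slc27a1, a fatty acid transporter, had 27.8 and 25.5 CPM in the gate's pools, against 0 to 5.88 in unsorted pools (median 1.44), a log2 ratio of 3.81 (SE 0.47, adjusted p = 1.63e-07). Slc29a3, a lysosomal nucleoside transporter (joined with Ent3), had 143 and 147 CPM, against 47.7 ± 9.86 in unsorted pools (log2 ratio 1.59, SE 0.20, adjusted p = 2e-07), and Slc4a8 had 95.7 and 97.9 CPM, against 28.5 ± 9.25 (1.79, SE 0.29, adjusted p = 1.06e-05). Slc2a6, a sugar transporter, had 33.1 and 45.1 CPM in the gate, against 7.24 ± 4.06 (2.43, SE 0.42, adjusted p = 3.69e-05). On the low side, Slc38a5 and Slc25a21 had 0 UMIs in the gate, so that unsorted pools were at least 69.5-fold and 26.9-fold above the floor of 2.64 CPM. Slc11a2 fell to 19.1 and 3.92 CPM in the gate's pools (log2 ratio −2.96, SE 0.35, adjusted p = 7.77e-08), and Slc20a1, a phosphate transporter, to 5.22 and 1.96 CPM, against 24.9 ± 6.82 in unsorted pools (log2 ratio −2.70, SE 0.54).

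In the CMP_Irf8GFP_MHCII gate, which has 4 pools, 31 of 146 members (21.2%) were higher and 38 (26.0%) lower, near the 22.7% and 24.2% of all genes (median log2 ratio −0.03 for members and −0.01 for all genes). Slc46a3 had 58.5, 86.5, 95.0 and 66.7 CPM in the 4 pools of the gate, against 10.2 to 33.7 in unsorted pools (median 20.4), a log2 ratio of 1.96 (SE 0.21, adjusted p = 2.86e-09) without overlap. Slc27a1 had 18.1, 22.8, 18.6 and 19.6 CPM in the gate, against 1.73 ± 1.64 in unsorted pools (log2 ratio 3.39, SE 0.39, adjusted p = 1.98e-08). Slc9a9, an endosomal sodium and proton exchanger, varied within the gate, at 64.1, 27.3, 10.3 and 37.3 CPM, and overlapped with unsorted pools (6.14 ± 6.39). Its log2 ratio was 2.60 (SE 0.42, adjusted p = 5.13e-06). Slc43a2 had 53.0, 60.7, 61.9 and 47.1 CPM, against 17.7 ± 5.52 in unsorted pools (log2 ratio 1.66, SE 0.20, adjusted p = 3.74e-08). Slc38a5 had 0 UMIs in the gate, where the floor put unsorted pools at least 141-fold higher, and Slc11a2 had 13.9, 10.6, 6.19 and 13.7 CPM (log2 ratio −3.02, SE 0.25, adjusted p = 1.91e-11).

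The gates and the class sets rest on the same unsorted pools, so they are only set side by side here. The 9 Car1-marking members were lower in 8, 8 and 9 cases in the CMP_CD41, CMP_Flt3_Csf1r and CMP_Irf8GFP_MHCII gates, and the 12 Elane members were higher in 0, 7 and 6 cases and lower in 5, 3 and 2. Car1 cells were 0.893%, 0% and 0.135% of the cells in these gates and 33.6% of unsorted cells. Both sets also had to lie above Pf4 cells, which came from the CMP_CD41 gate, so lower levels in that gate were partly set by this choice. The 3 Pf4-marking members were all higher in the CMP_CD41 gate, where the Pf4 cells themselves came from. Of 7 tested iron and heme transporters, 3 were lower in each gate, and 1 (Slc25a39, log2 ratio 0.54) was higher in the CMP_Flt3_Csf1r gate. Over all genes, 18.5%, 18.0% and 22.7% were higher in the 3 gates and 20.2%, 18.4% and 24.2% lower. Of 18 other iron and heme genes, 13, 13 and 14 were lower and 1, 0 and 1 higher.

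**Figure D3:**
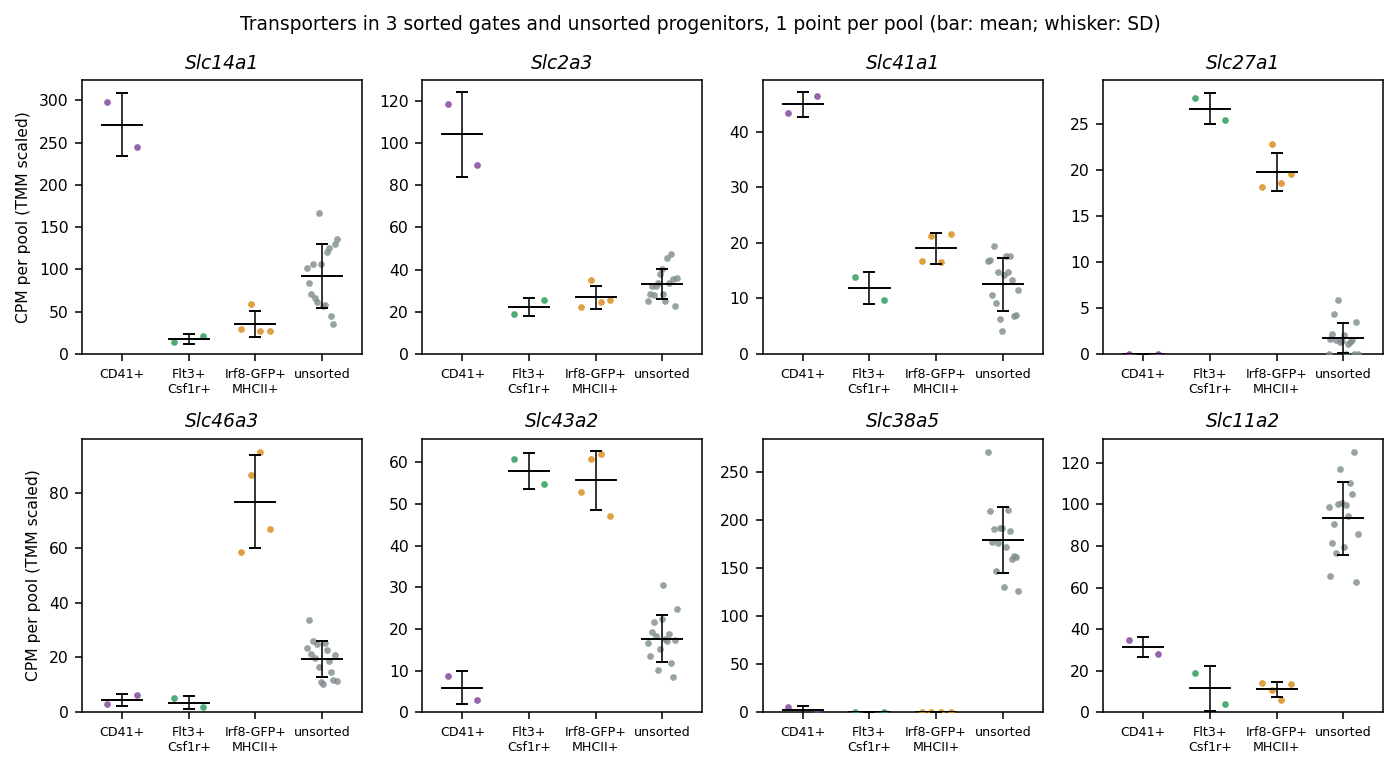
Levels of 8 members (CPM) in the CMP_CD41, CMP_Flt3_Csf1r and CMP_Irf8GFP_MHCII gates and in unsorted pools, each point 1 pool, with bars at the mean and whiskers of 1 SD. Slc14a1 and Slc2a3 are highest in CMP_CD41 pools, Slc46a3 in CMP_Irf8GFP_MHCII pools, and Slc38a5 is at 0 to 5.78 in the gates.

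Cebpa is a transcription factor needed to form granulocyte and monocyte progenitors. In whole Cebpa knockout and control pools, which all came from 1 sequencing batch, members were called at a share near that of all genes. By edgeR, 2 of 100 members rose and 4 fell in Cebpa knockout pools, against 2.30% and 4.90% of all genes (16 members at an unadjusted p under 0.05; median log2 ratio 0.08 for members and 0.04 for all genes). The pools differed in make-up, and fewer cells of a type and less RNA per cell cannot be told apart in them: Car1 cells were 72.5% of Cebpa knockout cells and 29.4% of control cells, and Elane cells 0.472% and 19.2%. Cells that passed several gates, 5.43% of knockout and 21.0% of control cells, are in none of these classes. The control pools were uneven, with 36.6%, 49.4%, 11.1% and 9.57% Car1 cells in control replicates 3, 4, 5 and 6. Neutrophil markers fell in 5 of 6 cases and monocyte markers in 4 of 4, and the part of pool make-up in the member changes was not tested.

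Slc4a8 had 0 to 13.8 CPM in the 8 Cebpa knockout pools (median 0.833), against 31.2, 36.6, 45.7 and 44.1 CPM in the 4 control pools, a log2 ratio of −3.38 (SE 0.54, adjusted p = 0.000215). Slc25a12 had 32.5 to 80.7 CPM in knockout pools (median 62.6), against 122, 122, 194 and 187 CPM in control pools (log2 ratio −1.28, SE 0.21, adjusted p = 0.000267), and Slc35c2 had 56.5 to 85.8 CPM (median 74.4), against 119, 122, 198 and 213 CPM (log2 ratio −1.05, SE 0.20, adjusted p = 0.0014). For all 3 every knockout pool lay below every control pool, and all 3 belong to the members higher in Elane cells than in Car1 and Pf4 cells. With the plate as unit Slc35c2 was not called, and with all pools grouped by GEO's label 0 members were called. Slc25a39 fell to 146 to 225 CPM in knockout pools, against 204, 218, 389 and 393 CPM in control pools (log2 ratio −0.69, SE 0.19, adjusted p = 0.0301), with overlap. That call was lost in 7 of 14 fits that left out pools.

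Slc14a1 rose: 67.4 to 172 CPM in knockout pools (median 105), against 58.1, 61.0, 0 and 3.68 CPM in control pools, a log2 ratio of 1.54 (SE 0.41, adjusted p = 0.0227). No knockout pool overlapped with the controls, but control replicates 5 and 6 lay far under replicates 3 and 4. The log2 ratio was 0.89 without control replicates 5 and 6 and 5.60 without 3 and 4, and the call was lost without knockout replicate 7 (1.44), with DESeq2 and with the plate as unit. In another batch, with Cebpa pools taken by the authors' table, it was 2.84. Slc25a23, an ATP-Mg and phosphate carrier, had 16.1 to 89.4 CPM in knockout pools (median 47.4), against 29.8, 16.3, 3.81 and 3.68 CPM in control pools (log2 ratio 1.49, SE 0.41, adjusted p = 0.0296), and its call was lost in 6 of 14 such fits. Slc38a5, the leading Car1 marker, ran from 96.8 to 274 CPM in knockout pools (median 189), against 224, 191, 64.8 and 33.1 CPM in control pools, and was not called (log2 ratio 0.48, adjusted p = 0.361). Without control replicates 3 and 4 together, 18 members rose and 13 fell, and without 5 and 6 together 2 rose and 3 fell.

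Within Car1 cells, where pools could be set side by side for 1 class, 1 of 87 members rose and 2 fell in the Cebpa knockout, against 1.22% and 0.546% of all genes (median log2 ratio −0.02 for members and 0.04 for all genes). Other lineages' markers moved with these: 3 of 4 tested neutrophil markers and 1 of 2 monocyte markers (Ly6c2) fell, while Srgn of the neutrophil list and Gzmb of the basophil and mast list rose. The summed level of the 7 neutrophil markers was 1030 to 1445 CPM in knockout Car1 sums and 1787 to 3103 CPM in control Car1 sums, and its part in the member changes was not tested. Slc25a12 had 39.6 to 102 CPM in knockout Car1 sums (median 58.8), against 124, 113, 181 and 241 CPM in control Car1 sums, a log2 ratio of −1.17 (SE 0.25, adjusted p = 0.00502). Its ranges did not overlap, and it was called in all 12 fits that left out 1 pool, but not with stricter gates, after thinning or in the other batch by the authors' table (log2 ratio −0.71). Slc25a38 fell to 47.9 to 168 CPM in knockout Car1 sums (median 106), against 207, 193, 181 and 192 CPM in control Car1 sums (log2 ratio −0.83, SE 0.22, adjusted p = 0.0344), also without overlap; the call was lost in 4 of 12 fits that left out 1 pool, with DESeq2, with stricter gates, after thinning, with cells classed by their highest relative marker and in the other batch. Slc44a2 had 14.8 to 57.6 CPM in knockout Car1 sums (median 35.7), against 8.27, 12.9, 0 and 0 CPM in control Car1 sums, which rest on 7 UMIs (log2 ratio 2.00, SE 0.54, adjusted p = 0.039), and its call was lost in 8 of 12, with DESeq2, with stricter gates, after thinning and by the highest relative marker. Slc38a5 had a log2 ratio of −0.08 (adjusted p = 0.922) and Slc14a1 one of 1.00 (SE 0.30, adjusted p = 0.085) within Car1 cells.

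In the Cebpe comparison members were called in both directions. Cebpe is a transcription factor of late granulocyte maturation. By the authors' table, 17 of 94 members rose and 10 fell in Cebpe knockout pools, against 13.4% and 10.0% of all genes (median log2 ratio 0.14 for members and −0.01 for all genes). Car1 cells were 0.894% of Cebpe knockout cells and 24.4% of Cebpe control cells, and Elane cells 73.5% and 18.0%, so that whole pools compare different mixtures. Cells that passed several gates, 22.7% of knockout and 48.8% of control cells, are in none of these classes. By highest relative marker, which puts such cells into 1 class, 58 of 559 knockout and 120 of 250 control cells were Car1 cells. All 9 erythroid markers fell and 6 of 7 neutrophil markers rose, and their part in the member changes was not tested. Grouped by GEO's label in place of the table, 10 members rose and 13 fell, and 13 of the members named here changed sign.

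Among members that fell, Slc38a5 had 24.3, 51.2, 32.4 and 65.4 CPM in Cebpe knockout pools, against 125 and 189.7 CPM in Cebpe control pools (log2 ratio −1.83, SE 0.26, adjusted p = 4.72e-06). Slc25a21 had 17.0, 14.6, 18.5 and 19.2 CPM in knockout pools, against 78.0 and 76.9 CPM in control pools (log2 ratio −2.13, SE 0.31, adjusted p = 7.37e-06), and Slc14a1 had 43.7, 43.9, 75.5 and 27.1 CPM, against 193 and 188 CPM (log2 ratio −1.98, SE 0.24, adjusted p = 3.51e-07). Slc16a1 had 38.9, 56.1, 77.1 and 46.3 CPM in knockout pools, against 145 and 154 CPM in control pools (log2 ratio −1.42, SE 0.23, adjusted p = 2.09e-05). Knockout and control pools did not overlap for these 4. Slc11a2 (log2 ratio −1.21, SE 0.28, adjusted p = 0.00178) and Slc41a3 (−1.35, SE 0.38, adjusted p = 0.0102) also fell, and both calls were lost without control replicate 2. Slc25a38, at a log2 ratio of −0.63 (adjusted p = 0.131), was not called.

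Among members that rose, Slc4a8 had 107, 85.3, 83.2 and 110.1 CPM in Cebpe knockout pools, against 25.0 and 3.27 CPM in Cebpe control pools (log2 ratio 2.72, SE 0.38, adjusted p = 3.75e-06). Slc28a2 had 68.0, 105, 92.5 and 65.4 CPM in knockout pools, against 7.80 and 22.9 CPM in control pools (log2 ratio 2.41, SE 0.37, adjusted p = 1.33e-05), and Slc43a2 had 63.2, 87.7, 69.4 and 86.2 CPM, against 10.9 and 16.4 CPM (log2 ratio 2.47, SE 0.35, adjusted p = 4.47e-06). For these the lowest knockout pool was above the highest control pool. Slc22a15, an organic ion transporter, had 24.3, 19.5, 23.1 and 23.9 CPM in knockout pools, against 4.68 and 1.64 CPM in control pools (log2 ratio 2.75, SE 0.64, adjusted p = 0.00182), and Slc2a1 had 24.3, 39.0, 20.0 and 17.6 CPM, against 4.68 and 3.27 CPM (log2 ratio 2.54, SE 0.62, adjusted p = 0.00318). Both of these calls were lost without control replicate 2, as were those of Slc22a4, Slc24a6, Slc29a1 and Slc43a1. Slc22a15 and Slc22a4 could be tested in only 1 fit that left out a pool (log2 ratios 2.22 and 1.16), and Slc2a1 in 2. The Slc24a6 call was also lost without control replicate 1. That of Slc43a1 was also lost without knockout replicate 2, 3 or 4, with DESeq2 and with the plate as unit. Slc26a6, an anion exchanger (joined with a second spelling), had 19.4, 14.6, 24.7 and 51.1 CPM in knockout pools, against 4.68 and 4.91 CPM in control pools (log2 ratio 2.52, SE 0.62, adjusted p = 0.00337). Of 10 tested members of family 35, 3 rose and 0 fell, beside 13.4% and 10.0% of all genes.

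**Figure D4:**
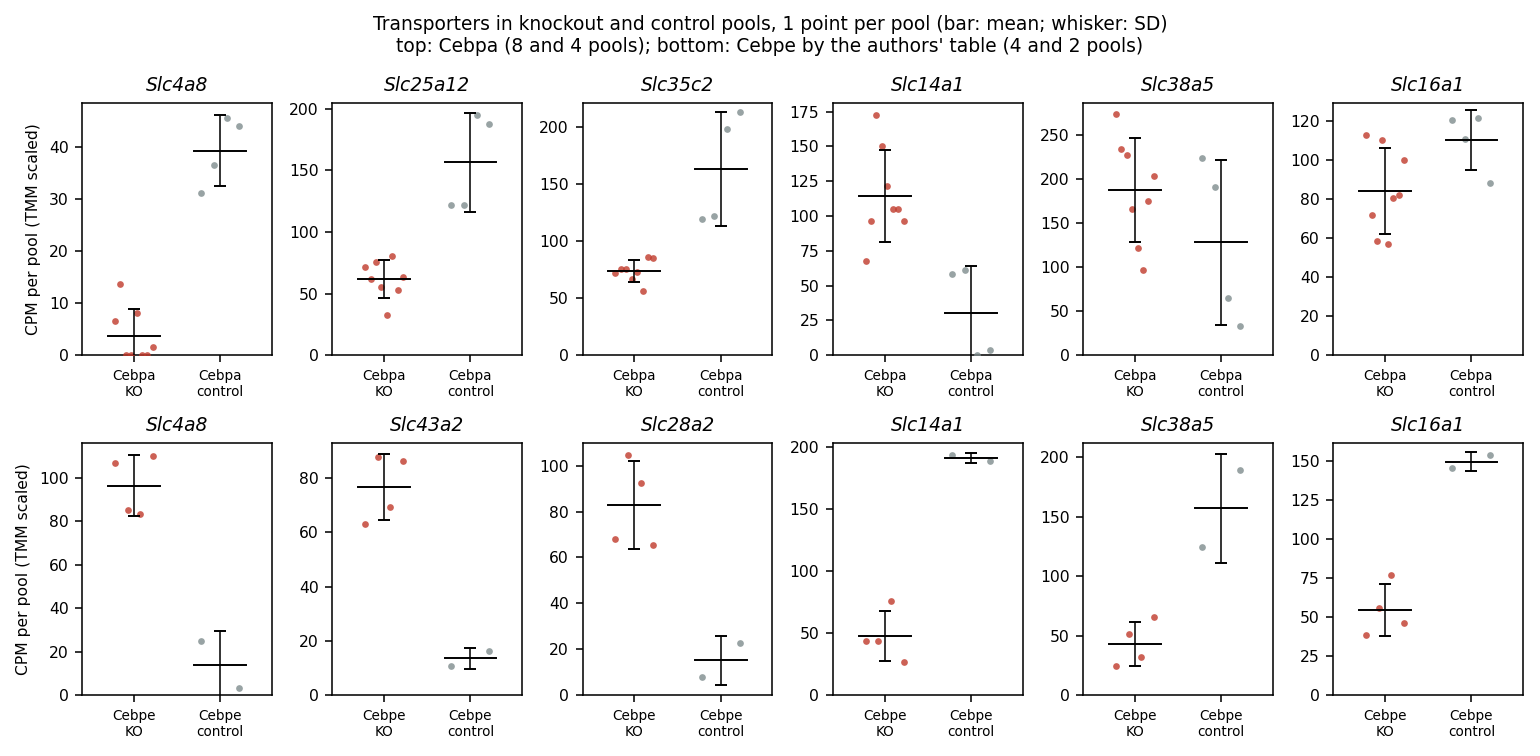
Levels of 6 members in Cebpa knockout and control pools (top) and of 6 members in Cebpe knockout and control pools by the authors' table (bottom), in CPM, each point 1 pool, with bars at the mean and whiskers of 1 SD. Slc4a8 is at 0 to 13.8 in Cebpa knockout pools and at 83.2 to 110.1 in Cebpe knockout pools.

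Within single classes few of the Cebpe differences were called. In Elane cells 1 of 62 members rose and 0 fell in the Cebpe knockout, against 1.02% and 0.586% of all genes. This was Slc43a2, with 76.5, 101, 81.7 and 82.7 CPM in knockout Elane sums (127 UMIs), against 0 UMIs in both control Elane sums, which is at least 3.72-fold higher in the knockout than the floor of 22.7 CPM (adjusted p = 0.00915). DESeq2 gave no adjusted p for it, and the call was lost without either control pool. Slc4a8 had 115, 97.3, 106 and 128 CPM in knockout Elane sums, against 37.9 and 0 CPM in control Elane sums, and was not called (log2 ratio 2.29, SE 0.66, adjusted p = 0.0733). Slc28a2 had 67.0, 129, 106 and 92.8 CPM in knockout Elane sums, against 25.3 and 91.8 CPM in control Elane sums, with overlap and no call (log2 ratio 0.88, adjusted p = 0.513).

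Car1 cells were too rare in Cebpe knockout pools for the gates above, so cells were assigned by their highest relative marker, which gave 58 knockout and 120 control Car1 cells. Only 5 knockout cells had passed the Car1 gate alone, against 61 control cells. Knockout Car1 sums held 973 to 1194 CPM of Elane, against 324 and 318 in control Car1 sums, and 2577 to 3165 CPM of Mpo, against 1454 and 1617. Prtn3 and Ctsg of the neutrophil list were also higher in every knockout sum. Srgn, Ms4a3 and Gfi1 of that list overlapped, and Cebpe had 0 UMIs in knockout sums. The part of these markers in the member values was not tested. By edgeR and by DESeq2, 0 of 44 members were called in these Car1 sums (3 at an unadjusted p under 0.05), against 0.297% of all genes in each direction. Slc38a5 had 189, 189, 195 and 464 CPM in knockout Car1 sums, against 219.6 and 287 CPM in control Car1 sums, and the groups overlapped (log2 ratio 0.02, SE 0.26, adjusted p = 0.995). Slc16a1 had 94.7, 88.0, 141 and 109 CPM in knockout Car1 sums, against 202 and 196 CPM in control Car1 sums, without overlap but also without a call (log2 ratio −0.85, SE 0.31, adjusted p = 0.385). The difference between the knockout's effects in Elane and in Car1 cells was called for 0 of 91 members by edgeR and by DESeq2 (7 at an unadjusted p under 0.05), against 0.0437% higher and 0.146% lower over all genes.

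Side by side, the median log2 ratio of the Car1-marking members in the Cebpe knockout was −1.39 in whole pools (0 rose and 5 fell of 6 tested) and 0.04 in Car1 cells (0 and 0 of 6). In the Cebpa knockout it was −0.00 in whole pools (0 and 0 of 9). Within Car1 cells of the Cebpa knockout it was −0.25 (0 rose and 1 fell of 9), with 8 of the 9 ratios below 0. The members higher in Elane cells than in Car1 and Pf4 cells had a median log2 ratio of −0.17 in whole Cebpa knockout pools (0 rose and 3 fell of 10 tested). It was 1.17 in whole Cebpe knockout pools (7 and 0 of 12) and 0.19 in Elane cells of the Cebpe knockout (1 and 0 of 11). Of all genes, 13.4% rose and 10.0% fell in whole Cebpe knockout pools, and 2.3% and 4.9% in whole Cebpa knockout pools. Fewer genes were called within classes: 1.02% and 0.586% in Elane cells and 0.297% each way in Car1 cells of the Cebpe knockout. In Car1 cells of the Cebpa knockout the shares were 1.22% and 0.546%. Whether whole-pool and within-class ratios differ for a member was not tested.

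**Figure D5:**
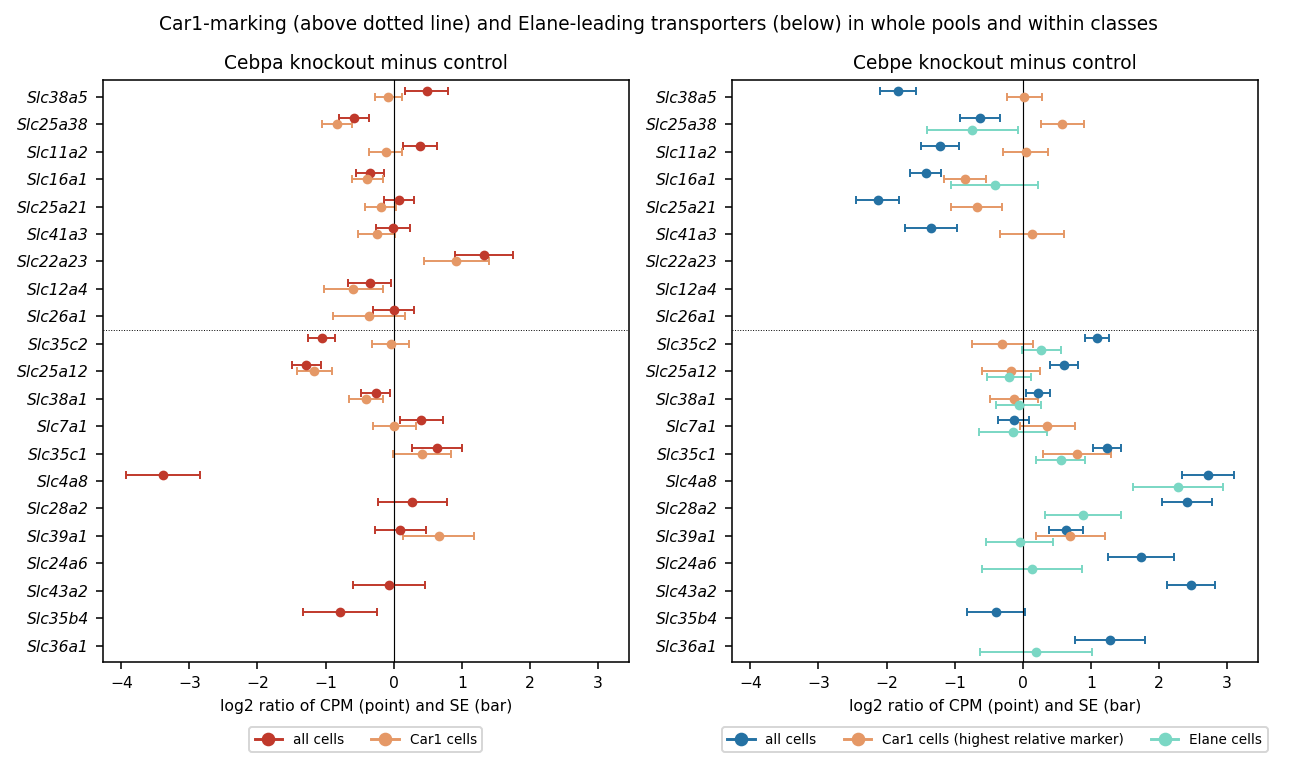
Log2 ratios (knockout over control, whiskers of 1 SE) of Car1-marking members and of members higher in Elane cells than in Car1 and Pf4 cells, for whole pools and within marker classes, in the Cebpa and Cebpe comparisons. Members at 0 UMIs in a group or not tested are not drawn; Slc38a5 is at −1.83 in whole Cebpe pools and at 0.02 in Car1 cells.

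The share of all UMIs that came from members is given without a test. It was 1.05% in Car1 cells, 0.968% in Elane cells, 1.01% in Pf4 cells and 1.01% in Flt3 cells. It was 0.921% in Cebpa knockout pools and 0.879% in Cebpa control pools, and 0.893% in Cebpe knockout pools and 0.981% in Cebpe control pools. The 2 most abundant members were spread over all classes, Slc25a3 at 1583 ± 188 CPM in Car1, 1216 ± 218 in Elane, 1402 ± 77.1 in Pf4 and 1430.3 ± 357 in Flt3 sums, and Slc25a5 at 1249, 1320.1, 1745 and 1458 CPM.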

How the data were processed

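Raw UMI counts per gene row and well were taken from the table deposited by the authors, and each well's pool, plate, sequencing batch and description from their well table. The submitters' processing notes name bcl2fastq 2.15.0.4 and mm9; aligner and UMI counting rules: not given in the sources used here. Wells held single sorted cells, so no doublet caller was run, and cells with at least 500 UMIs were kept.

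UMIs were summed per pool, or per pool and class with at least 5 cells, and tested with edgeR 4.0.16 (quasi-likelihood test, TMM, R 4.3.3) on genes with at least 50 UMIs in the fit, with Benjamini-Hochberg adjustment over all genes tested and calls at an adjusted p under 0.05. Class fits of unsorted pools had the pool as a block; Pf4 cells were compared without one. UMIs count 3′ ends, so levels were not divided by length. A fold against a class or gate at 0 UMIs was computed against 3 UMIs over that group, in CPM without TMM factors. The steps were tested on simulated data. DESeq2 1.42.0 was an alternative.

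Pools were used where label and authors' table name the same group, and Cebpe pools by the table. Changed from the plan: TMM factors came from class sums, the Pf4 class from the CMP_CD41 gate, and Car1 cells of the Cebpe comparison, with the interaction, from the highest relative marker. The members and gene lists were chosen with earlier results of these data known. Named were, per comparison, up to 8 called members with the largest log2 ratios in each direction, the 10 members with most UMIs and the tested iron and heme transporters; other members were named after their values were seen. Alternatives covered tool, scaling, gene filter, class gates, cell depth, batch, grouping source and left-out pools. Start regions came from RefSeq (GRCm38.p6), which held none for Slc14a1, Slc2a3 and Slc7a4.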

Additional observations from a re-analysis of the deposited data

Results flagged for a closer look

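Slc22a4, the organic cation transporter OCTN1, rose in Cebpe knockout pools, and 1 pool stood apart from the others. Cebpe knockout replicate 1 had 34.0 CPM, against 17.1, 17.0 and 19.2 CPM in knockout replicates 2 to 4, and the 2 Cebpe control pools had 9.36 and 3.27 CPM (log2 ratio 1.70, SE 0.59, adjusted p = 0.0353). The call was lost with DESeq2, with the plate as unit and without control replicate 2. Its gap to the nearest pool was large for the spread of the group. This was 1 of 51 groups of pools examined for such a gap, which chance gives in about 1 of 20.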

How the results depend on the processing

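With gates of 4, 4, 4 and 2 UMIs the counts were 21 for Car1 (62 in the report), 14 for Elane (28), 0 for Flt3 (5) and 12 for Pf4 cells (26); with 10 or more cells per pool and class they were 13, 5, 0 and 9, and within the smaller unsorted batch, SB17, 14, 6, 0 and 11. All of these tested fewer cells or pools. For Flt3 cells the count was also 2 within SB19, 3 after thinning to 1000 UMIs, 1 with cells of 1000 or more UMIs, 8 with filterByExpr and 18 by highest relative marker; by that marker Elane cells had 55. For Pf4 cells it was 17 with cells of 1000 or more UMIs and 7 to 14 without 1 of the 2 pools. The CMP_CD41 gate (51) gave 33 within SB17 and 23 to 27 without 1 pool, the CMP_Flt3_Csf1r gate (55) 29 to 37 and the CMP_Irf8GFP_MHCII gate (69) 63 to 72.

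For Cebpa (6 called) the count was 11 with no gene filter, 18 with all pools by the authors' table, 0 by the GEO label, 2 with the plate as unit, 4 to 12 without 1 pool and 31 without controls 3 and 4. For Cebpe (27) it was 13 to 26 without 1 pool. In Car1 cells of the Cebpa comparison (3) it was 1 with DESeq2, 0 with the stricter gates, 0 after thinning, 1 by highest relative marker and 1 to 4 without 1 pool. In Elane cells of the Cebpe comparison (1) it was 0 with DESeq2, 3 with no gene filter, 5 with the stricter gates, 3 after thinning, 3 by highest relative marker and 0 to 2 without 1 pool. The cause was not tested.

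Of 1363 member values under alternatives, 1096 kept direction and call, 242 lost the call and 25 changed sign. With the Cebpe pools grouped by GEO label, which turns the groups round in part, the log2 ratios were 1.30 for Slc11a2, 1.44 for Slc14a1, 0.81 for Slc16a1, −3.05 for Slc24a6, 2.15 for Slc25a21, −3.21 for Slc26a6, −2.08 for Slc28a2, 1.45 for Slc29a1, 1.93 for Slc38a5, 2.67 for Slc41a3, 1.94 for Slc43a1, −2.22 for Slc4a8 and −2.12 for Slc43a2. With 10 or more cells they were 0.10 for Slc36a1 and 0.20 for Slc43a2 (Car1), 0.094 for Slc25a3 and 0.57 for Slc46a3 (Elane), −6.40 for Slc9a3r1 (Flt3), and 0.091 for Slc16a1 and 0.88 for Slc7a1 (Pf4). With the stricter gates they were −0.25 for Slc10a7, 0.024 for Slc25a3 and 0.33 for Slc46a3 (Elane) and 0.34 for Slc16a1 (Pf4), and within SB17 0.29 for Slc16a1 (Pf4). The labels carry no replicate numbers, so knockout and control pools were not paired; classes were paired within pools, and without that pool block Car1, Elane and Flt3 cells had 58, 29 and 4 members called. Pf4 cells of the Cebpa pools were too few to be tested, and that comparison was not run. Depth limited small classes: 3 UMIs stand for 20.8 CPM over Flt3 cells and 22.7 CPM over Elane cells of the Cebpe control.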
